A study of Mus musculus with 16 samples.

Results

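Reactive astrocyte genes are genes that astrocytes raise when brain tissue is injured or inflamed. The genes described here are 10 named genes of this kind, Gfap, Vim, Serpina3n, Cd44, Osmr, Steap4, S1pr3, Timp1, Hspb1 and Tnc, taken by their symbols from the 21878 mRNAs of the count table. All 10 had counts in every library and passed the filter on low counts, as did 17885 mRNAs in all. Their levels and their change between mice with experimental autoimmune encephalomyelitis (EAE, a mouse model of multiple sclerosis) and PBS-treated mice are given over 16 brain libraries.

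The study sequenced RNA of cells sorted as microglia (CD11b+/CD45int) from 16 female wild-type C57BL/6 mice that were 8 weeks old, with 8 mice a group and 1 stranded, ribosome-depleted library per mouse. EAE mice were immunized under the skin with the MOG 35–55 peptide of myelin oligodendrocyte glycoprotein in complete Freund's adjuvant and were given 200 ng of pertussis toxin per dose on days 0, 2 and 7. In the control group, PBS replaced all of these agents, and brains were taken on day 14, when disease was at its peak. The effects of these agents and of the disease therefore cannot be told apart. In the treatment label of the libraries, the last MOG residue runs from 55 in EAE 1 to 62 in EAE 8, whereas the protocol gives 35–55 for all of them. Libraries of EAE mice held 24587443 to 30244215 counts and those of PBS-treated mice held 26031889 to 34184576.

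The libraries held more RNA of astrocyte markers than of microglia markers. The summed FPKM (fragment counts scaled by the authors to transcript length and library size) of 14 astrocyte markers, a list without any of the 10 genes, was 2095 to 3232 over the libraries. For 17 microglia markers the sum was 222 to 388, for 12 neuron markers it was 1139 to 1436 and for 10 oligodendrocyte markers it was 945 to 1326, and none of these markers was at 0 in any library. The label microglia therefore does not describe all the RNA measured, and the 10 genes were read in RNA that also came from other brain cells. In such bulk RNA, more cells of a type and more RNA per cell cannot be told apart. Of the 13 neutrophil markers, Ngp, Ltf, S100a8 and S100a9 were higher in EAE mice at an adjusted p under 0.05 and 0 were lower, with sums of 52.9 to 103 in EAE libraries against 22.9 to 59.2 in PBS libraries. Ltf, Mmp8, Ly6g and Elane were at 0 in at least 1 library. The part of neutrophils and of the other cells in the results below was not tested.

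Some libraries resembled each other more than others did. A noise ratio was taken for every pair within a group, over mRNAs with a mean of at least 100 counts. It is the median of the squared difference of the 2 libraries relative to that of counting noise. Counting noise alone would give a ratio near 1. The ratio was 3.02 to 3.61 among EAE 6, EAE 7 and EAE 8 and 3.31 to 4.09 among PBS 5, PBS 7 and PBS 8, against 5.88 to 26.2 for the other EAE pairs and 7.60 to 25.4 for the other PBS pairs. These 6 libraries are called here the most alike set, and results for the 10 genes are also given within them and within the other 5 libraries of each group. No ratio was taken between an EAE and a PBS library. The set thus joins EAE and PBS libraries that were each found alike only within their own group, and whether they share a property was not tested. At the other end, EAE 4 and EAE 5 stood apart. The EAE pairs with EAE 4 or EAE 5 had ratios of 13.8 to 26.2. For the other EAE pairs outside the set, they were 5.88 to 8.32. PBS 4 had ratios of 22.8 to 25.4 with PBS 5, PBS 7 and PBS 8. With PBS 1, PBS 2, PBS 3 and PBS 6, its ratios were 10.9 to 15.5, near the 7.60 to 14.7 of the other PBS pairs outside the set. EAE 4 and EAE 5 also had the highest sums of astrocyte and of ependymal markers among the EAE libraries. Neither the labels nor the methods name a batch.

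Astrocytes support neurons by clearing glutamate, buffering ions and lining blood vessels. After injury they enlarge and add intermediate filaments, and they raise protease inhibitors, matrix proteins and cytokine receptors, a response known as reactive astrogliosis. Cytokines of the interleukin 6 family, such as oncostatin M, act through gp130 and STAT3 to drive several of these genes. Gfap is the standard marker of the response, and several of the other genes are also expressed by endothelial, mural, immune or progenitor cells, so that their RNA need not have come from astrocytes.

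The promoter sequences of 4 of the genes are shown. These are Gfap, Vim and S1pr3, whose levels ran in parallel over the libraries, and Tnc, which had the smallest p of the 10. The levels of Serpina3n, whose sequence is not shown, ran with those of Gfap, Vim and S1pr3 as well. Each is the RefSeq sequence (GRCm38.p6) from 250 bases before to 20 bases after the start site, 5′ to 3′ on the strand of the gene. Capitals mark matches on either strand to 4 motifs. The STAT-type motif is spelled TTCNNNGAA. The core promoter box is spelled TATAAA. The AP-1-type motif is spelled TGANTCA, and the heat shock type is spelled GAANNTTC.
Gfap (chr11:102897181-102897450, minus strand): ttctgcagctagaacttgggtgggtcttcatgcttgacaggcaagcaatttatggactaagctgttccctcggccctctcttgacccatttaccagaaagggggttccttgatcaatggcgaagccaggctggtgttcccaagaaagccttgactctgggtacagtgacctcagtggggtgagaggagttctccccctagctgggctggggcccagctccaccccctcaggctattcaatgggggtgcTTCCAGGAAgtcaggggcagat
Vim (chr2:13574061-13574330, plus strand): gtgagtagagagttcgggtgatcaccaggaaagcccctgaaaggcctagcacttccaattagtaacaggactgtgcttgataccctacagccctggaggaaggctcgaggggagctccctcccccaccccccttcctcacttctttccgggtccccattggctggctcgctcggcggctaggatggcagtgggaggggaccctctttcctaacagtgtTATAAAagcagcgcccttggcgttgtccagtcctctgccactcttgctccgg
S1pr3 (chr13:51408368-51408637, plus strand): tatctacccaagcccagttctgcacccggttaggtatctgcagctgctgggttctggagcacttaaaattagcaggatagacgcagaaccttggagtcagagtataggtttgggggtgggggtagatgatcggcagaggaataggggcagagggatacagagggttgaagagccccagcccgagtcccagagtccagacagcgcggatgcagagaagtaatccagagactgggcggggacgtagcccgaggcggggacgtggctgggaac
Tnc (chr4:64046996-64047265, minus strand): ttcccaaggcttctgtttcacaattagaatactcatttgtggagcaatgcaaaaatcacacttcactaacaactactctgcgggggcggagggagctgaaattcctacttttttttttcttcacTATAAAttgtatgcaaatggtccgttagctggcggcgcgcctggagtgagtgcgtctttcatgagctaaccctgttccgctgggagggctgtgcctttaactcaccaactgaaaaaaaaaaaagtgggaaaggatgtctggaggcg
The Gfap window held a TTCNNNGAA match whose first base is 2 bases before the start site, at position −2. The Vim window held TATAAA at −32. The S1pr3 window held no match, and the Tnc window held TATAAA at −126 from the outer of its 2 RefSeq start sites. Among the other 6 genes, Steap4 had TTCNNNGAA at −116 and TATAAA at −215, Hspb1 had GAANNTTC at −117 and −97, Osmr had TGANTCA at position 4 (the start site is position 1), and Serpina3n, Cd44 and Timp1 had no match. Over the 32851 mouse promoter windows of 300 bases, 8.30% held TTCNNNGAA, 7.81% TGANTCA, 13.6% TATAAA and 7.86% GAANNTTC. These matches describe letters only and say nothing of binding.

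Of the 10 genes, 9 had a higher and 1 a lower estimate in EAE mice, and their median log2FC was 0.48, against 0.00915 over the 17885 mRNAs tested, of which 9417 were higher. Tnc, Gfap and S1pr3 were higher in EAE mice at an adjusted p under 0.05 (quasi-likelihood test of edgeR, adjusted by Benjamini-Hochberg over all mRNAs), and 0 of the 10 were lower. Over all mRNAs, 0.66% were higher and 1.76% were lower at that threshold, or 118 and 315 mRNAs, which became 226 and 103 with library totals as the only scaling. None of the 10 was a DEmRNA, which also takes a |log2FC| over 1 and which 0.117% of mRNAs were, and 0 were DEmRNAs with DESeq2, limma or edgeR's exact test either. At an unadjusted p under 0.05, 7 of the 10 were higher and 0 were lower, against 7.92% of mRNAs higher and 9.52% lower. The count of 3 depended on single libraries. It was 1 without EAE 1, EAE 2, EAE 3, EAE 8, PBS 1, PBS 2, PBS 3 or PBS 6. Without EAE 5 it was 5, with 292 mRNAs higher and 609 lower in all. Leaving out EAE 4 gave 4 of the 10, with 502 mRNAs higher and 815 lower in all, and leaving out PBS 4 gave 2. In an exact permutation test of mean FPKM over the 12870 ways to assign 8 libraries to each group, 7 of the 10 had a two-sided p under 0.05, all of them higher in EAE mice, against 18.4% of mRNAs in either direction.

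**Figure D1:**
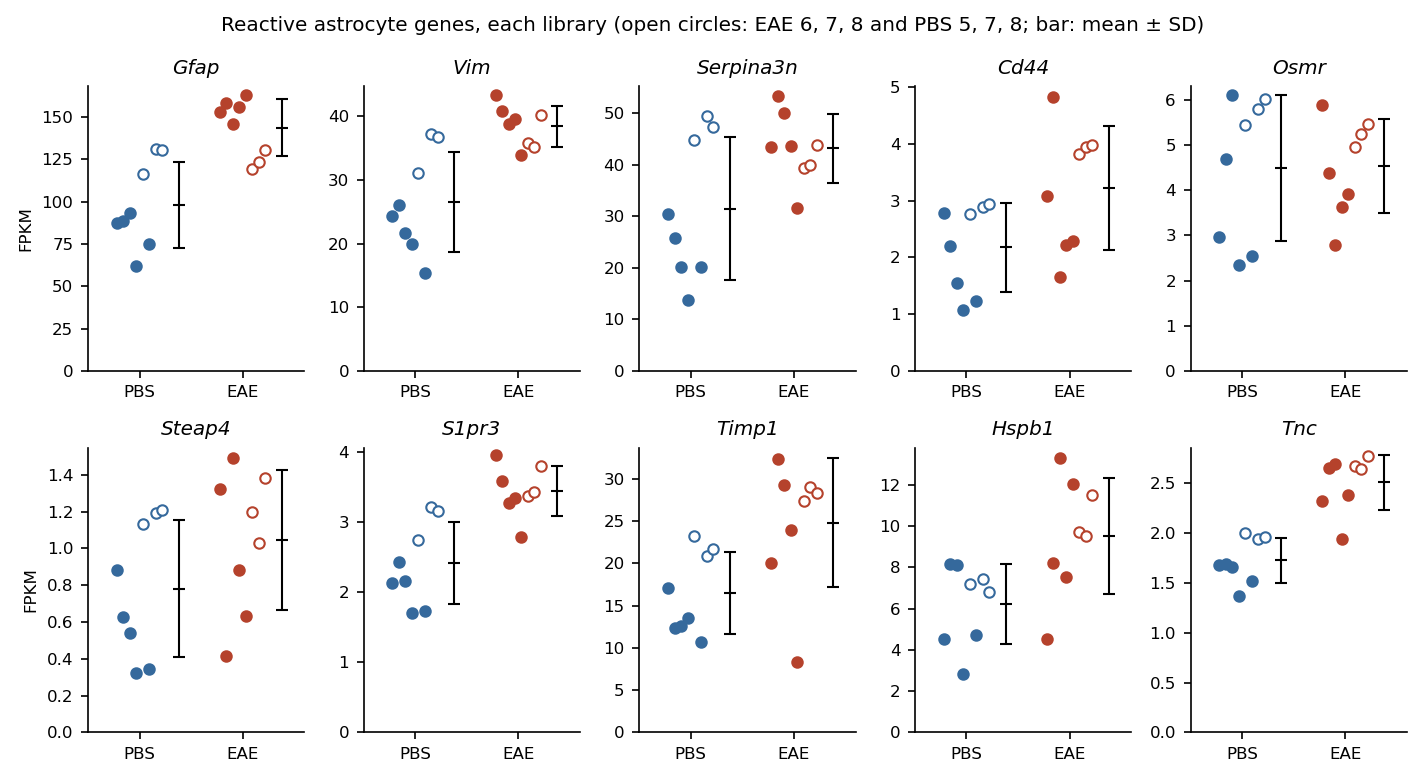
FPKM of each of the 10 genes in each library (vertical axes start at 0), PBS in blue and EAE in red, with open circles for EAE 6, 7 and 8 and PBS 5, 7 and 8 and a bar for the mean ± SD of 8 libraries. For Gfap, the open circles of both groups lie between 117 and 131, apart from the filled circles above and below them.

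Gfap (ENSMUSG00000020932.14, chromosome 11, 102887336 to 102900912, minus strand) codes for the main intermediate filament of astrocytes and was by far the most abundant of the 10. Its FPKM in EAE libraries had a lowest value of 120, a median of 150 and a highest of 163, whereas the PBS libraries had 62.2, 91.0 and 131. The 5 EAE libraries outside the most alike set all lay above every PBS library, and the other 3 overlapped with PBS 7 and PBS 8. The mean was 144 ± 16.9 (SD, n = 8) in EAE mice against 98.1 ± 25.5 in PBS-treated mice. The log2FC was 0.50 (SE 0.12, 95% interval 0.25 to 0.75, adjusted p = 0.0312 in edgeR), and the exact permutation p on FPKM was 0.00202. In 16 edgeR fits, each without 1 library, the adjusted p stayed under 0.05 in 8. It was lost without EAE 1, EAE 2, EAE 3, EAE 8, PBS 1, PBS 2, PBS 3 or PBS 6 and was highest, at 0.0720, without PBS 2. A long non-coding RNA gene, Gm26668, overlaps Gfap on the opposite strand.

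Vim (ENSMUSG00000026728.9, chromosome 2, 13573927 to 13582826, plus strand) codes for vimentin, the filament that reactive astrocytes assemble with GFAP and that endothelial, fibroblast and immune cells also carry. Its FPKM was 33.9, 39.2 and 43.3 (lowest, median and highest) in EAE libraries against 15.4, 25.2 and 37.2 in PBS libraries. All 8 EAE values lay above the PBS median, and the groups overlapped through PBS 7 and PBS 8. The mean was 38.4 ± 3.22 (SD, n = 8) against 26.6 ± 7.88. Its log2FC of 0.48 (SE 0.13, adjusted p = 0.0583 in edgeR) missed the threshold by a small margin and passed it in 4 of the 16 fits without 1 library, those without EAE 4, EAE 5, PBS 7 or PBS 8, with a lowest adjusted p of 0.0314 in the last. The exact permutation p was 0.00218.

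Of 14 genes for intermediate filaments and their linkers, 2 rose at an adjusted p under 0.05, Gfap and Nes, and 0 fell. Over all mRNAs, 0.66% rose and 1.76% fell at that threshold. Nes codes for nestin, a filament of neural progenitors that reactive astrocytes express again. Its mean FPKM was 2.44 in EAE mice against 1.5 in PBS-treated mice. The log2FC was 0.65 (SE 0.16, adjusted p = 0.0333 in edgeR). The adjusted p of Nes was over 0.05 without any 1 of EAE 1, EAE 2, EAE 3, EAE 6, EAE 7, EAE 8, PBS 1, PBS 2, PBS 3 and PBS 5, up to 0.0779. Synm, which codes for synemin and joins these filaments, had a log2FC of 0.03 and an adjusted p of 0.880 in edgeR. The median log2FC of the 14 genes was 0.08.

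Tnc (ENSMUSG00000028364.15, chromosome 4, 63959785 to 64047015, minus strand) codes for tenascin-C, a matrix glycoprotein that is prominent in development and is made again around lesions. Its FPKM had a lowest value of 1.94, a median of 2.65 and a highest of 2.77 in EAE libraries. In PBS libraries, these values were 1.37, 1.68 and 2.00. The groups overlapped in 1 EAE library only, EAE 4, which lay among PBS 5, PBS 7 and PBS 8, and 7 EAE libraries lay above every PBS library. The mean was 2.51 ± 0.279 (SD, n = 8) against 1.73 ± 0.223, and the libraries held 290 to 535 Tnc counts each. The log2FC was 0.49 (SE 0.089, 95% interval 0.30 to 0.67, adjusted p = 0.00740 in edgeR), the exact permutation p was 4.66e-04, and the p ranked 40 among the 17885 mRNAs. Tnc was the only 1 of the 10 with an adjusted p under 0.05 in all 16 fits without 1 library (highest 0.0220, without PBS 2). A processed transcript, 8030451A03Rik, overlaps it on the opposite strand.

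Cd44 (ENSMUSG00000005087.17, chromosome 2, 102811141 to 102901665, minus strand) codes for the cell surface receptor of hyaluronan, present on reactive astrocytes and on leukocytes. Its FPKM was 1.66, 3.45 and 4.83 (lowest, median and highest) in EAE libraries against 1.07, 2.48 and 2.95 in PBS libraries. EAE 3, EAE 4 and EAE 5 lay below the PBS median and the other 5 EAE libraries lay above every PBS library. The log2FC was 0.52 (SE 0.22, adjusted p = 0.230 in edgeR), with means of 3.23 ± 1.10 (SD, n = 8) and 2.18 ± 0.786, and the exact permutation p was 0.0463. A small nuclear RNA gene, Gm23731, lies within Cd44 on the opposite strand.

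Among 23 genes for CD44, tenascins, hyaluronan and their partners, Tnc rose and Rdx fell at an adjusted p under 0.05. Over all mRNAs, 0.66% rose and 1.76% fell at that threshold. Rdx codes for radixin, which links membrane receptors such as CD44 to actin, and its log2FC was −0.24 (SE 0.047, adjusted p = 0.00954 in edgeR), under 0.05 in all 16 fits without 1 library. Of the other tenascins, Tnr had FPKM means of 27.4 in EAE mice against 27.3 in PBS-treated mice, Tnxb had 1.56 and 1.33, and Tnn had 0.0901 and 0.0519. The estimate was higher for 12 of the 23 genes and lower for 11, with a median log2FC of 0.03.

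S1pr3 (ENSMUSG00000067586.4, chromosome 13, 51408639 to 51422797, plus strand) codes for a receptor of sphingosine 1-phosphate, a lipid that guides leukocyte traffic and acts on astrocytes. Its FPKM in EAE libraries was 2.78, 3.40 and 3.95 (lowest, median and highest). In PBS libraries it was 1.71, 2.30 and 3.21. All EAE libraries but EAE 5 lay above every PBS library. The mean was 3.44 ± 0.357 (SD, n = 8) against 2.41 ± 0.586, with a log2FC of 0.46 (SE 0.12, 95% interval 0.21 to 0.71, adjusted p = 0.0480 in edgeR) and an exact permutation p of 0.00124. The adjusted p lay close to the threshold. It was under 0.05 in 4 of the 16 fits without 1 library, those without EAE 4, EAE 5, PBS 7 or PBS 8, and over it in the 12 others, up to 0.103 without EAE 8. A long non-coding RNA gene, Gm32834, overlaps S1pr3 on the opposite strand.

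S1pr3 was the only gene of 13 in sphingosine 1-phosphate signalling with an adjusted p under 0.05 in the edgeR fit over all libraries. The receptor S1pr1, the most abundant of the family here, had FPKM means of 45.0 in EAE mice against 50.7 in PBS-treated mice. Its log2FC was −0.22 (SE 0.092, adjusted p = 0.206 in edgeR). For S1pr5 these means were 4.12 and 4.37, for S1pr2 0.743 and 0.631, and for S1pr4 0.150 and 0.200. Sgpp1, a phosphatase that removes the phosphate from sphingosine 1-phosphate, had a log2FC of −0.21 and an adjusted p of 0.0583 in edgeR. The estimate was higher for 5 of the 13 genes and lower for 8.

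Osmr (ENSMUSG00000022146.12, chromosome 15, 6813577 to 6874969, minus strand) codes for the receptor chain that binds oncostatin M together with gp130. It had no difference between the groups that this design could resolve. Its FPKM was 2.79, 4.67 and 5.88 (lowest, median and highest) in EAE libraries against 2.34, 5.07 and 6.12 in PBS libraries, and no EAE library lay above every PBS library. The log2FC was −0.04 (SE 0.20, 95% interval −0.44 to 0.37, adjusted p = 0.944 in edgeR), and the exact permutation p was 0.946. The interval holds changes of either sign, and the sign of the estimate turned in 5 of the 16 fits without 1 library, between −0.13 and 0.04.

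Of 21 genes of oncostatin and gp130 signalling, 2 fell and 0 rose at an adjusted p under 0.05. Over all mRNAs, 1.76% fell and 0.66% rose at that threshold. Cntfr, the ciliary neurotrophic factor receptor, had a log2FC of −0.25 (SE 0.046, adjusted p = 0.00847 in edgeR), under 0.05 in all 16 fits without 1 library. Jak1, a kinase of these receptors, had a log2FC of −0.15 (SE 0.039, adjusted p = 0.0480 in edgeR), and its adjusted p was over 0.05 without any 1 of EAE 1, EAE 2, EAE 3, EAE 6, EAE 7, EAE 8, PBS 1, PBS 2, PBS 3, PBS 5, PBS 7 and PBS 8, up to 0.119. Over 13 settings with all 16 libraries, Jak1 had an adjusted p under 0.05 in 4, and limma called 0 genes of the list. Stat3, the transcription factor of the pathway, had a log2FC of 0.22 (adjusted p = 0.321), and Socs3, its feedback inhibitor, had −0.18 (adjusted p = 0.779 in the same edgeR fit). The ligand Osm had mean FPKM values of 1.19 and 0.931. The median log2FC of the 21 genes was 0.13.

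Serpina3n (ENSMUSG00000021091.8, chromosome 12, 104406729 to 104414329, plus strand) codes for a secreted serine protease inhibitor that reactive astrocytes make in quantity. Its FPKM was 31.6, 43.6 and 53.3 (lowest, median and highest) in EAE libraries against 13.8, 28.1 and 49.4 in PBS libraries. PBS 5, PBS 7 and PBS 8 lay among or above most EAE libraries, while the other 5 PBS libraries lay below every EAE library. The means were 43.1 ± 6.68 (SD, n = 8) and 31.5 ± 13.9, with a log2FC of 0.40 (SE 0.20, adjusted p = 0.303 in edgeR) and an exact permutation p of 0.0516. Its paralogs in the Serpina3 cluster were low. Of 10 cluster genes in the table, 6 passed the filter, and the highest mean FPKM of a paralog in EAE mice was 0.340, for Serpina3i. By edgeR, 0 of the 6 had an adjusted p under 0.05 and 1 had an unadjusted p under 0.05, Serpina3f, with DESeq2 and limma also giving 0. Reads shared between these related genes may have been split or dropped in the counting.

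Timp1 (ENSMUSG00000001131.11, chromosome X, 20870166 to 20874735, plus strand) codes for an inhibitor of matrix metalloproteinases. Its FPKM in EAE libraries was 8.28, 27.8 and 32.4 (lowest, median and highest) and in PBS libraries it was 10.6, 15.3 and 23.2. EAE 5 was lower than every PBS library, EAE 1 lay among them, and the other 6 EAE libraries lay above all of them. The log2FC was 0.54 (SE 0.21, adjusted p = 0.171 in edgeR), the means were 24.8 ± 7.66 (SD, n = 8) and 16.5 ± 4.87, and the exact permutation p was 0.0241. Without EAE 5, the log2FC was 0.67 and the adjusted p was 0.0143. Timp1 lies inside Syn1, a neuronal gene on the opposite strand, and the strand setting of the counting was not given in the sources used here.

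No gene of 21 TIMP inhibitors and matrix proteases had an adjusted p under 0.05 in edgeR's quasi-likelihood test, while 3 were higher and 4 lower at an unadjusted p under 0.05, against 7.92% of all mRNAs higher and 9.52% lower. DESeq2 gave 2, edgeR's exact test 1 and limma 0. Timp2 had FPKM means of 62.6 in EAE mice against 70.6 in PBS-treated mice (log2FC −0.22, adjusted p = 0.0571 in edgeR), Timp4 had 39.9 and 41.3, and Timp3 had 30.7 and 32.0. All 3 were more abundant than Timp1 in PBS-treated mice, and Timp1 alone of the 4 had a positive estimate. Mmp24, a membrane-bound metalloproteinase, had a log2FC of −0.14 and an adjusted p of 0.0890 in edgeR.

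Hspb1 (ENSMUSG00000004951.10, chromosome 5, 135887919 to 135889563, plus strand) codes for HSP27, a small chaperone that binds damaged protein and actin. Its FPKM was 4.52, 9.62 and 13.3 (lowest, median and highest) in EAE libraries against 2.81, 6.99 and 8.15 in PBS libraries. EAE 1 was lower than all but 1 PBS library, and 6 of the EAE libraries lay above all PBS libraries. The means were 9.54 ± 2.81 (SD, n = 8) and 6.22 ± 1.95, with a log2FC of 0.56 (SE 0.21, adjusted p = 0.158 in edgeR) and an exact permutation p of 0.0165. With 73 to 329 counts a library it was, after Steap4, the least covered of the 10. Of the 8 small heat shock genes, 0 had an adjusted p under 0.05 in edgeR and 2 had an unadjusted p under 0.05, Hspb1 and Hspb6, with 1 call from DESeq2 and 0 from limma. Hspb6 had a log2FC of 0.45 (SE 0.14, adjusted p = 0.0932 in edgeR). Cryab, the most abundant of them, had FPKM means of 22.5 and 21.3, and Hspb8 had 8.50 and 8.07.

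Steap4 (ENSMUSG00000012428.9, chromosome 5, 7960457 to 7982213, plus strand) codes for a metalloreductase of iron and copper uptake that cytokines induce. With 29 to 128 counts a library, it was the least covered of the 10. Its FPKM was 0.415, 1.12 and 1.49 (lowest, median and highest) in EAE libraries against 0.321, 0.754 and 1.21 in PBS libraries. The groups overlapped widely, with EAE 2 near the bottom and EAE 3 at the top of the range. The means were 1.04 ± 0.379 (SD, n = 8) and 0.780 ± 0.372, and the log2FC of 0.37 (SE 0.29, 95% interval −0.23 to 0.96, adjusted p = 0.553 in edgeR) was not resolved from 0. The exact permutation p was 0.177. Of the 4 STEAP genes, 0 had an adjusted p under 0.05 and 0 had an unadjusted p under 0.05 in edgeR, and DESeq2 and limma gave 0 as well. Steap2 had mean FPKM values of 2.14 in EAE mice against 2.34 in PBS-treated mice, Steap3 had 1.27 and 1.13, and Steap1 had 0.517 and 0.479.

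**Figure D2:**
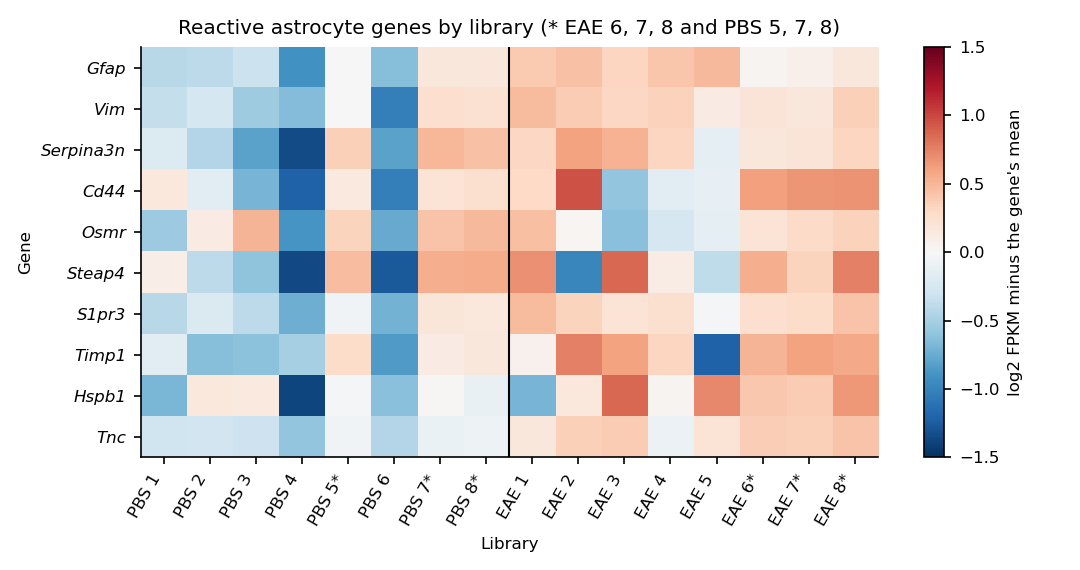
The log2 FPKM of each of the 10 genes in each library, minus the gene's mean over the 16 libraries, with red above and blue below the mean and an asterisk on EAE 6, 7 and 8 and PBS 5, 7 and 8. PBS 4 and PBS 6 are below the mean for all 10 genes, and PBS 7 and PBS 8 are near or above it for most.

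The effect of EAE on Gfap differed between the 2 sets of libraries. Within EAE 6, EAE 7 and EAE 8 and PBS 5, PBS 7 and PBS 8, the mean Gfap FPKM was 125 ± 5.69 (SD, n = 3) in EAE mice against 126 ± 8.30 (n = 3) in PBS-treated mice. Within the other 5 libraries a group it was 155 ± 6.38 (n = 5) and 81.2 ± 12.7 (n = 5). The log2FC was −0.05 (SE 0.039, adjusted p = 0.419) in the first set and 0.87 (SE 0.096, adjusted p = 0.00196) in the second, by edgeR within each. In an edgeR fit of group, set and their interaction, the difference of the 2 effects was −0.92 (SE 0.13, adjusted p = 0.00807). Only 0.0615% of mRNAs, 11 in all, had an interaction with an adjusted p under 0.05 and a negative sign, and none had a positive one. The sets were found from these same data by their small spread, so the adjusted p of the interaction is not that of a split fixed in advance. The cause of this difference was not tested.

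Serpina3n and Vim had differences of the same sign that missed the threshold after adjustment. For Serpina3n, the log2FC was −0.23 (SE 0.048, adjusted p = 9.67e-04) within the most alike set and 0.94 (SE 0.17, adjusted p = 0.0524) within the others, and the interaction was −1.18 (SE 0.24, adjusted p = 0.0724 in edgeR). For Vim, it was 0.05 (adjusted p = 0.621) and 0.80 (SE 0.12, adjusted p = 0.0221), with an interaction of −0.76 (SE 0.17, adjusted p = 0.119 in edgeR). The interaction of S1pr3 was −0.48 (adjusted p = 0.527 in edgeR), and its log2FC was 0.19 within the most alike set and 0.66 within the others.

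Tnc had nearly equal estimates in both sets, with log2FC values of 0.43 (SE 0.082, adjusted p = 4.60e-04) within the most alike set and 0.53 (SE 0.11, adjusted p = 0.108) within the others, and an interaction of −0.11 (SE 0.15, adjusted p = 0.901 in edgeR). In the most alike set, the Tnc FPKM was 2.64 to 2.77 in EAE libraries against 1.94 to 2.00 in PBS libraries. Cd44, Timp1 and Hspb1 were also higher in EAE mice within that set, with log2FC values of 0.42, 0.34 and 0.49 and adjusted p values of 2.91e-04, 0.00178 and 0.00535 in edgeR. Within the other libraries, their log2FC values were 0.60, 0.71 and 0.61, with adjusted p values of 0.447, 0.301 and 0.50. For Osmr, the log2FC was −0.17 (adjusted p = 0.0727) and 0.07 (adjusted p = 0.963), and for Steap4 it was 0.00246 (adjusted p = 0.994) and 0.74 (adjusted p = 0.474 in edgeR).

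In all, 4 of the 10 genes rose and 1 fell at an adjusted p under 0.05 within the most alike set, where 11.0% of all mRNAs rose and 13.1% fell. These libraries were set apart because they are alike within each group, so the spread in this fit is small by choice and its p-values, like that of the interaction, hold for these libraries only. Within the other libraries, 2 of the 10 rose, Gfap and Vim, where 0.0458% of all mRNAs rose. With a term for the set in the edgeR fit of all 16 libraries, 4 of the 10 rose, and the adjusted p of Vim was 0.0145. In that fit, 242 of the 17885 mRNAs rose and 526 fell at an adjusted p under 0.05, against 118 and 315 without the term.

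**Figure D3:**
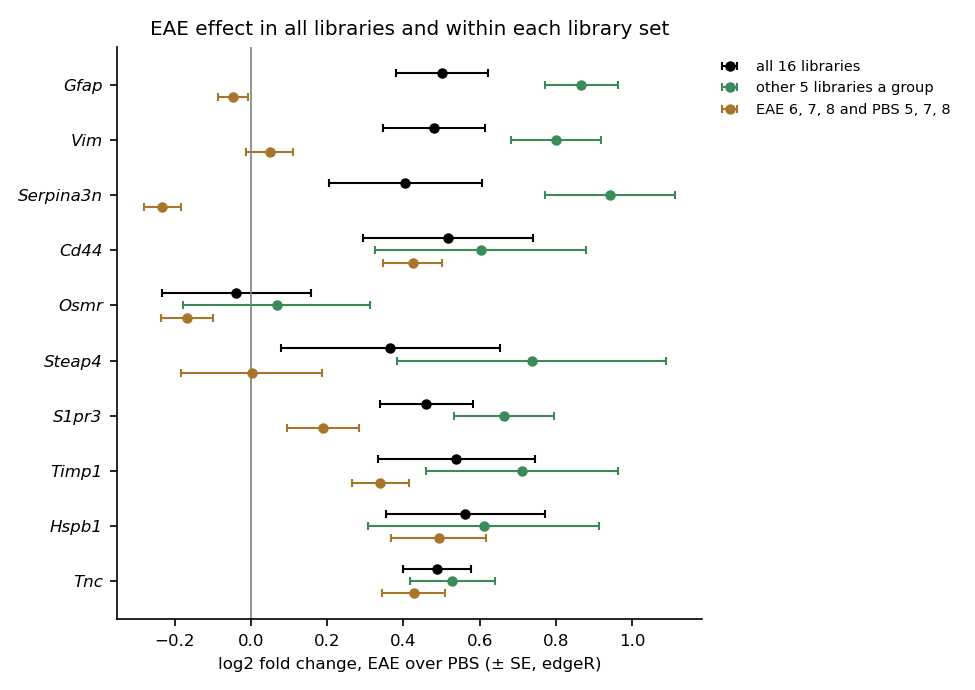
The log2 fold change of each of the 10 genes, EAE over PBS, with its SE from edgeR, in all 16 libraries (black), within the other 5 libraries a group (green) and within EAE 6, 7 and 8 and PBS 5, 7 and 8 (brown). Gfap lies at 0.87 in green and −0.05 in brown, while Tnc lies at 0.53 and 0.43.

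Other markers of astrocytes mostly had estimates of the opposite sign to that of Gfap. Of the 14 astrocyte markers, 13 had a lower estimate in EAE mice, 3 fell at an adjusted p under 0.05 and 0 rose, with a median log2FC of −0.23. The 3 were Slc4a4, a bicarbonate transporter (log2FC −0.25, adjusted p = 0.0140), Atp1b2, a subunit of the sodium pump (−0.19, adjusted p = 0.0439), and Fgfr3, a growth factor receptor (−0.25, adjusted p = 0.0467 in edgeR). Slc4a4 kept an adjusted p under 0.05 in all 16 fits without 1 library, while Atp1b2 did so in 4 of them and Fgfr3 in 3, with highest values of 0.102 and 0.115 without PBS 2. With library totals as the only scaling or upper quartile scaling, Slc4a4 alone was called, and limma gave 0 calls. Aqp4, the water channel of astrocyte endfeet, had mean FPKM values of 22.4 in EAE mice against 23.8 in PBS-treated mice, and Slc1a2, the glutamate transporter, had 528 and 585. The summed FPKM of the 14 markers had a median of 2280 in EAE libraries against 2698 in PBS libraries.

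Set against this sum, Gfap had no overlap between the groups, and most of its difference lay outside the most alike set. Its FPKM was 5.05% to 7.12% of the sum in EAE libraries against 2.29% to 5.0% in PBS libraries, with means of 5.96% ± 0.650 (SD, n = 8) and 3.58% ± 1.09. The gap between the groups was small, with PBS 8 as the highest PBS library and EAE 5 as the lowest EAE library. The exact permutation p was 1.55e-04, the smallest that this test allows. The same ratio had every EAE library above every PBS library for 0.263% of all mRNAs, and for 0.162% of all mRNAs the FPKM itself had no overlap, with none of the 10 genes among them. Because the sum was lower in EAE libraries, by 0.20 on the log2 scale, the ratio rose for most mRNAs, with a median log2 difference of 0.25 over 16119 mRNAs. For Gfap it was 0.79, and for the 9 other genes, whose groups all overlapped, it was 0.28 to 0.83. Within the most alike set, Gfap was 5.71% to 5.79% of the sum in EAE libraries against 4.56% to 5.0% in PBS libraries, a log2 difference of 0.25, where the median over the same mRNAs was 0.29. Within the other 5 libraries a group, it was 5.05% to 7.12% against 2.29% to 3.25%, a log2 difference of 1.11, where that median was 0.23. For Tnc, the log2 difference of the ratio was 0.72 within the most alike set and 0.75 within the others.

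**Figure D4:**
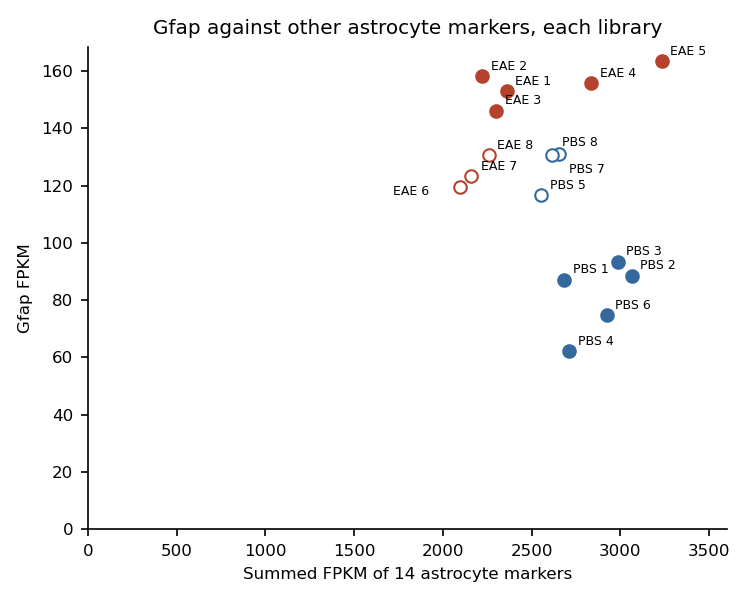
Gfap FPKM against the summed FPKM of 14 astrocyte markers (both axes start at 0), 1 point per library, EAE in red and PBS in blue, with open circles for EAE 6, 7 and 8 and PBS 5, 7 and 8. All EAE libraries but EAE 4 and EAE 5 lie to the left of every PBS library, and EAE 5 is the highest on both axes.

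Other lists of reactive astrocyte genes were counted against the same shares of all mRNAs, 0.66% higher at an adjusted and 7.92% higher at an unadjusted p under 0.05. Of 12 further genes of the general reactive response, 9 had a higher and 3 a lower estimate, with a median log2FC of 0.14, and Nes, counted above among the filaments, alone rose at an adjusted p under 0.05, with 4 higher and 0 lower at an unadjusted one. Cxcl10, a chemokine, averaged 7.07 and 1.94 FPKM, at a log2FC of 1.79 (SE 0.55, adjusted p = 0.0883 in edgeR). Lcn2, which neutrophils also make, had 31.0 and 24.1 (adjusted p = 0.478).

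The lists known as A1 and A2 come from astrocytes after endotoxin and after ischemia. Of 13 A1 genes, 0 had an adjusted p under 0.05 in edgeR's quasi-likelihood test, 3 were higher and 0 lower at an unadjusted p under 0.05, and DESeq2, limma and edgeR's exact test gave 0 as well. The smallest p-values were those of C3, the complement component (log2FC 0.79, adjusted p = 0.106), and Gbp3, an interferon-induced GTPase (0.75, adjusted p = 0.127 in edgeR). Of 12 A2 genes, 11 had a higher estimate, with a median log2FC of 0.52, and Tgm1 rose at an adjusted p under 0.05, with 6 higher and 0 lower at an unadjusted one. The lists share some genes and are not independent. Among the 6, Cd109 is also counted among the 12 further reactive genes, Clcf1 in gp130 signalling and Sphk1 in sphingosine 1-phosphate signalling. Tgm1, a transglutaminase, was also a DEmRNA, with a log2FC of 1.84 (SE 0.30, adjusted p = 0.00426 in edgeR), and held in all 16 fits without 1 library. Emp1, an epithelial membrane protein, had a log2FC of 0.64 (adjusted p = 0.125 in edgeR).

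**Figure D5:**
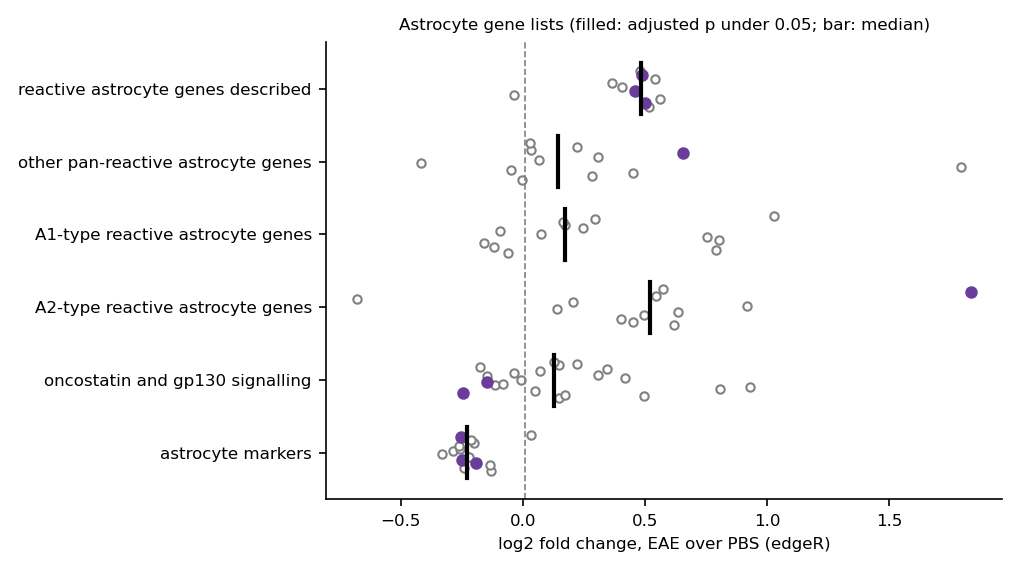
The log2 fold change, EAE over PBS, of each gene in 6 astrocyte lists, filled where the adjusted p of edgeR was under 0.05, with a bar at each list's median and a dashed line at the median over all mRNAs. The medians are 0.48 for the 10 genes described, 0.14, 0.17 and 0.52 for the other reactive lists, 0.13 for gp130 signalling and −0.23 for astrocyte markers.

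Marker lists of the other brain cells were counted in the same way. Of all mRNAs, 0.66% were higher and 1.76% lower at an adjusted p under 0.05 in edgeR. At an unadjusted p under 0.05, 7.92% were higher and 9.52% lower. Of 17 microglia markers, 15 had a higher estimate, and Trem2, a lipid receptor, rose at an adjusted p under 0.05 (log2FC 0.56, adjusted p = 0.0282 in edgeR), with list sums of 240 to 388 FPKM in EAE libraries against 222 to 362 in PBS libraries. Trem2 was over the threshold without EAE 2, PBS 2, PBS 3, PBS 5 or PBS 7, up to 0.0661, and the next smallest p was that of Fcrls (log2FC 0.45, adjusted p = 0.177 in edgeR). Of 12 neuron markers, 11 had a lower estimate, and Gad1, which makes GABA (log2FC −0.53, adjusted p = 0.00309), and Syt1, a synaptic vesicle protein (−0.28, adjusted p = 0.0326 in edgeR), fell. Gad1 held in all 16 fits without 1 library, and Syt1 was lost without EAE 1, EAE 2, EAE 3, PBS 2, PBS 3, PBS 5 or PBS 7, up to 0.0781. Of 10 oligodendrocyte markers, 8 had a lower estimate, and 0 had an adjusted p under 0.05 in edgeR and 4 an unadjusted one, with Opalin at 0.41 (adjusted p = 0.128).

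Markers of other cells that can share the 10 genes with astrocytes were summed as well, and such a sum does not count cells. For ependymal cells, which also express Vim and Gfap, 7 of 8 markers had a higher estimate, with list sums of 12.4 to 27.7 FPKM in EAE libraries against 11.6 to 16.8 in PBS libraries. In edgeR, 0 of them had an adjusted p under 0.05 and 3 an unadjusted one, led by Rsph1 (log2FC 0.63, adjusted p = 0.0554) and Ak7 (0.41, adjusted p = 0.0582), both of cilia. For endothelial cells, 5 of 10 were higher and 5 lower, with 0 at an adjusted and 0 at an unadjusted p under 0.05 in edgeR and sums of 45.6 to 70.3 and 41.6 to 67.0. Ly6c1 was at −0.32 (adjusted p = 0.291) and Kdr at 0.26 (adjusted p = 0.493 in edgeR). Of 10 pericyte and smooth muscle markers, Vtn fell (log2FC −0.47, adjusted p = 0.0400 in edgeR), with sums of 41.4 to 60.0 and 44.3 to 59.0, and its adjusted p passed 0.05 in 12 of the fits without 1 library, up to 0.0933 without PBS 2. The 8 fibroblast markers had sums of 25.1 to 44.8 and 27.0 to 34.0, with 0 at an adjusted and 1 at an unadjusted p under 0.05 in edgeR, Lum (log2FC 0.54, adjusted p = 0.184).

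Markers of monocytes and T cells were the lowest of the lists. All 8 monocyte markers had a higher estimate, with sums of 5.10 to 9.14 FPKM in EAE libraries against 2.44 to 6.91 in PBS libraries, and 0 had an adjusted p under 0.05 in edgeR and 1 an unadjusted one, Arg1 (log2FC 1.18, adjusted p = 0.0641). Plac8 and Ms4a4c were at 0 in at least 1 library. For 7 T cell markers the sums were 2.07 to 3.62 and 1.92 to 2.92, with 0 at an adjusted and 2 at an unadjusted p under 0.05 in edgeR, Cd8a and Cd3e, and Cd3e, Cd3d, Cd3g and Cd2 were at 0 in at least 1 library. The part of these cells in the level of the 10 genes was not tested.

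The lists other than the 10 genes held 16 genes with an adjusted p under 0.05 over all libraries, and all 16 had an estimate of the same sign within both sets of libraries. They were picked from all 16 libraries, which hold both sets, so the shared sign owes much to that choice and is no replication. Within the most alike set, 15 of them were under 0.05, and Trem2 was at 0.0729 (log2FC 0.32). The spread in that set is small by choice, and 11.0% of all mRNAs rose and 13.1% fell at an adjusted p under 0.05 in edgeR. Within the other 5 libraries a group, Tgm1 was the only 1 under 0.05 (log2FC 2.20, adjusted p = 0.0274 in edgeR), and the others were over it, up to 0.580 for Vtn. Among those named above, the log2FC within the most alike set and within the others was 0.58 and 0.71 for Nes, −0.31 and −0.21 for Rdx, −0.25 and −0.25 for Cntfr, −0.36 and −0.20 for Slc4a4, −0.65 and −0.46 for Gad1 and −0.82 and −0.28 for Vtn.

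The genes did not all vary together over the libraries. Over the 16 libraries, Pearson's r of log2 CPM was 0.96 between Vim and S1pr3, 0.90 between Gfap and Vim and 0.87 between Gfap and S1pr3, while it was 0.46 between Gfap and Timp1 and 0.27 between Osmr and Timp1. Serpina3n had an r of 0.88 with Vim, 0.88 with S1pr3 and 0.85 with Gfap. These values describe libraries that share the set structure given above, and carry no test. With each group centred on its own mean, r was 0.93 for Vim and S1pr3, 0.81 for Gfap and Vim and 0.49 for Gfap and Tnc.

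The mRNAs most like each gene were sought among 12861 with a mean of at least 100 counts. For Gfap they were Hmox1, the heme-degrading enzyme (r = 0.92), Vim (0.90) and Anxa1, an anti-inflammatory annexin (0.89). For Vim they were C4b (0.97), a complement component, S1pr3 (0.96) and Gbp7 (0.94), and for S1pr3 they were Vim (0.96), Gbp7 (0.95) and Gbp2 (0.94), both interferon-induced GTPases. Serpina3n was most like Gbp3 (0.91), Gbp7 (0.90) and Plekha2 (0.90). Tnc was most like Flnc, which codes for filamin C (0.95), Asap3 (0.94) and Ddx58, an RNA sensor (0.93), and Cd44 was most like Slc39a14, a metal transporter (0.96), Rassf1 (0.92) and Csf3 (0.92). For Timp1, they were Calcoco1 (0.94), Tpm3 (0.93) and Flot1 (0.92), for Hspb1 Trip10 (0.88), Hbegf (0.87) and Sprtn (0.85), and for Osmr Spry1 (0.91), Akap12 (0.88) and Plin2 (0.88). Steap4 had too few counts for this comparison.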

How the data were processed

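RNA-seq of 16 libraries was analysed. Per the labels, the authors aligned reads with HISAT2 2.1.0, counted them with HTSeq 0.11.2 and used DESeq2 1.22.2. They deposited raw counts and FPKM values of 21878 mRNAs on GRCm38. The strand setting was not given in the sources used here. FPKM was proportional to count over library total within each mRNA. The methods name both DESeq2 and edgeR. Here, edgeR 4.0.16 (TMM, quasi-likelihood test, group as the only term) was fitted to mRNAs whose counts summed to 16 or more in R 4.3.3, and tested on simulated data. DESeq2 1.42.0 and limma 3.58.1 were alternatives. FPKM means were compared by exact two-sided permutation. Positions are those of the annotation of GRCm38. The members and lists were chosen with earlier results of these data known. The text names all members, up to 6 genes with an adjusted p under 0.05 from each other list, otherwise the 2 with the smallest p, the 3 most alike mRNAs of each member with at least 100 counts, and paralogs. Synm, Stat3, Socs3, Osm, Lcn2, Aqp4 and Slc1a2 were chosen after their values were seen. Some genes that this rule would name are not reported here. Replicate numbers were not used to pair the libraries in the main fit. The labels do not say whether libraries were prepared together, and n is mice.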

Additional observations from a re-analysis of the deposited data

Results flagged for a closer look

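The effect of EAE on Gfap was lower by 0.92 on the log2 scale among EAE 6, EAE 7, EAE 8, PBS 5, PBS 7 and PBS 8 than among the other 10 libraries (interaction −0.92, SE 0.13, adjusted p = 0.00807 in edgeR), a difference between sets of libraries that were found from these data and not from the labels. No library stood apart from its group for any of the 10 genes by Dixon's test in groups of 8, which flags about 1 group in 20 by chance.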

How the results depend on the processing

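For the 10 genes, 300 refits of single log2FC values left 248 with their direction and side of the adjusted p threshold of 0.05. With the sign kept, the adjusted p rose over 0.05 in 25 and fell under 0.05 in 15. In 12 the log2FC had the other sign. The count of genes with an adjusted p under 0.05, which was 3, became 5 with a replicate block and 5 within EAE 6–8 and PBS 5, 7 and 8, and ranged from 1 to 5 without 1 library. With the block, 150 mRNAs were higher and 367 lower in all. No gene passed the fold threshold in any of these fits. The log2FC turned to −0.0473 for Gfap and −0.232 for Serpina3n within EAE 6–8 and PBS 5, 7 and 8. That of Osmr turned to 0.0125 with library totals only, 0.0710 and 0.0495 with limma on log2(FPKM + 0.1) and log2(FPKM + 1), 0.0163 with the replicate block and 0.0674 within the other 5 libraries, and ranged from −0.133 to 0.0404 without 1 library. Tnc kept an adjusted p under 0.05 in all 13 settings with 16 libraries, Gfap and S1pr3 each in 12. In the same settings Jak1 did so in 4, Fgfr3 in 6, Atp1b2 and Vtn in 8 and Syt1 in 9. Same-numbered libraries of the 2 groups deviated with r from −0.27 to 0.62, and 2 of 8 matched best with their own number. These values do not settle whether the numbers pair mice, and the block pairs libraries by number only. Counts per list moved by more than 1.5 times in 195 of 660 refits. Over all mRNAs, 118 were higher and 315 lower, against 226 and 103 with library totals only, 131 and 187 with upper quartile scaling, 297 and 602 with DESeq2, 260 and 485 with edgeR's exact test, 132 and 73 or 157 and 80 with limma, 242 and 526 with a term for the set, 1896 and 2251 within the most alike set and 8 and 5 within the others, and 39 to 502 and 104 to 815 without 1 library. Depth limits Steap4 most, at 29 counts in 1 library. The causes were not tested.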
